A study of Mus musculus with 7 samples.

Results

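The 10 genes described here carry out or control the making of glucose in the liver and its release into the blood. They are G6pc, Slc37a4, G6pc3, Slc2a2, Pck1, Pck2, Fbp1, Pcx, Ppargc1a and Foxo1. They were chosen by name, as probe sets annotated with exactly 1 gene symbol, and all 10 were found, on 11 of the 21631 probe sets with 1 symbol and among 19933 genes in all. RNA of 7 livers was hybridised to Mouse Gene ST arrays (Affymetrix), which give 1 intensity per probe set. The HDAC3 knockout group has 3 arrays from mice that received AAV-Cre, an adeno-associated virus carrying Cre recombinase. The rescued group has 4 arrays from mice that received AAV-Cre and a virus for Flag-tagged wild-type HDAC3, and its titles call it wild type. All were C57BL/6 males of 4 months on normal chow with free access to food, and the livers were taken 2 weeks after injection at 5 pm (ZT10), late in the light phase. The labels name neither the Hdac3 allele on which Cre acts nor the promoter of either virus, and no uninjected liver was analysed here. HDAC3 is the histone deacetylase of the NCoR and SMRT corepressor complexes, through which several nuclear receptors repress transcription.

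Gluconeogenesis builds glucose from lactate, glycerol and amino acids. Pyruvate is carboxylated in mitochondria, turned into phosphoenolpyruvate, carried back along the glycolytic chain and dephosphorylated at fructose bisphosphatase. The last steps, which gluconeogenesis shares with glycogen breakdown, take place at the endoplasmic reticulum: glucose-6-phosphate is carried into its lumen and hydrolysed there, and the free glucose leaves the hepatocyte through a plasma membrane transporter. Fasting hormones raise the transcription of several of these genes and insulin lowers it, in part through FOXO1.

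Values below are log2 of the deposited intensity, differences are knockout minus rescued, and a gene is called when limma's moderated test gave an adjusted p under 0.05 over all 19933 genes. Hdac3 read 8.93, 8.75 and 9.07 in knockout livers against 9.23, 9.45, 9.55 and 9.38 in rescued livers. The groups did not overlap, and the difference was -0.48 (SE 0.10, limma adjusted p = 0.0124). It was not called without knockout replicate 1, where the difference was -0.49. It is not known here whether this probe set reads the viral transcript, the endogenous one or both, so it checks the labels only in part. The 7 measured hepatocyte markers, among them Alb and Apoa1, lay above 99.7% of all genes. None of the 7 was called, and their summed intensity was 72882 to 73848 in knockout and 72120 to 73562 in rescued livers. Each knockout array had a higher median intensity over all probe sets than each rescued array, at 105 to 111 against 96.3 to 102. The median difference over all genes was 0.09 as deposited and 0.01 or less after quantile normalization, median centring or cyclic loess, so these 3 scalings were run as alternatives. Hdac3 was called lower in each of them, with differences of -0.57 to -0.46.

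Of the 10 genes, 3 were called lower in knockout livers and 1 higher, against 4.85% of all genes called lower and 9.54% called higher (14.4% in either direction). The groups did not overlap in 5 of the 10, against 29.6% of all genes. The 3 lower genes, G6pc, Slc37a4 and Slc2a2, act in the last steps of the pathway, which free and export glucose. All 3 were also called lower in every scaling. The median difference of the 10 was 0.03, beside 0.09 over all genes. The 10 genes were picked by their function with earlier results of these arrays known, so their counts are a description of the set. In whole liver, fewer cells of a type and less RNA per cell cannot be told apart.

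**Figure D1:**
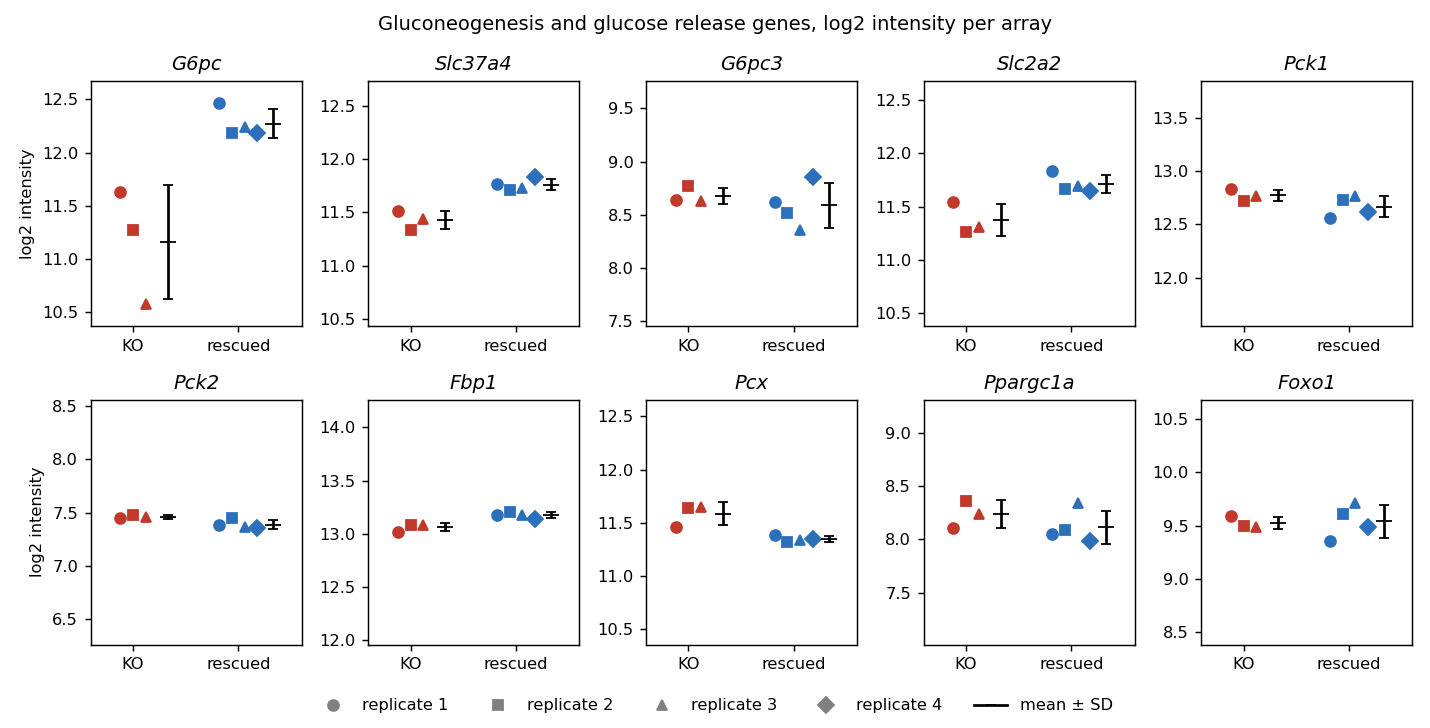
Log2 intensity of each of the 10 genes on every array, with HDAC3 knockout livers (KO, 3 arrays) in red and rescued livers (4 arrays) in blue. Marker shapes give the replicate number, black bars the mean ± SD, and every panel spans the same height on the log2 axis. G6pc shows the widest gap between groups and the widest spread among knockout arrays, and Slc37a4 and Slc2a2 also have every knockout array below every rescued array.

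G6pc encodes the catalytic subunit of glucose-6-phosphatase, the enzyme that frees glucose from glucose-6-phosphate in liver and kidney. Its probe set 10381387 read 11.63, 11.28 and 10.58 in knockout livers and 12.47, 12.18, 12.24 and 12.19 in rescued livers. All 3 knockout livers lay below all 4 rescued livers, a pattern that 8.56% of all genes showed in this direction. The knockout livers were also far apart among themselves. On the linear scale the intensity was 3177, 2478 and 1527 in the knockout livers, while the rescued livers lay between 4645 and 5668. Knockout livers averaged 11.16 ± 0.54 (SD, n = 3) and rescued livers 12.27 ± 0.14 (SD, n = 4), a difference of -1.11 (SE 0.19, 95% confidence interval -1.53 to -0.69), or 2.16-fold lower with limma adjusted p = 0.00691. Only 29 of the 19933 genes had a more negative difference. Knockout replicate 3 contributed most: without it the difference was -0.82 and limma's adjusted p 0.0061. Without knockout replicate 1, the highest of the 3, it was -1.34. The call held without each of the 7 arrays in turn, and the scalings gave -1.20 to -1.13.

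Slc37a4 encodes the glucose-6-phosphate transporter of the endoplasmic reticulum, which supplies the substrate to glucose-6-phosphatase. It read 11.51, 11.34 and 11.44 in knockout livers against 11.77, 11.71, 11.73 and 11.83 in rescued livers. The shift was small and even, with a gap between the highest knockout and the lowest rescued array and little spread on either side. The difference was -0.33 (SE 0.07, 95% confidence interval -0.48 to -0.18), or 1.26-fold lower, with limma adjusted p = 0.0157. It lay between -0.42 and -0.37 after the scalings, and the call held without each array in turn, with differences of -0.37 to -0.28.

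Slc2a2 encodes GLUT2, the glucose transporter of the hepatocyte plasma membrane. It read 11.55, 11.26 and 11.31 in knockout livers against 11.84, 11.67, 11.70 and 11.64 in rescued livers. The groups again did not overlap, although knockout replicate 1 came close to the lowest rescued array. The difference was -0.34 (SE 0.09, 95% confidence interval -0.53 to -0.15), or 1.27-fold lower, with limma adjusted p = 0.0283. The scalings gave -0.43 to -0.38. Slc2a2 was no longer called without knockout replicate 2 (difference -0.28, adjusted p = 0.0769), knockout replicate 3 (-0.31, 0.0662), rescued replicate 2 (-0.35, 0.0581) or rescued replicate 3 (-0.34, 0.0699).

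Knockout replicate 1 had the highest value of its group in G6pc, Slc37a4 and Slc2a2 alike, and it was also the knockout array with the highest median intensity. Among the rescued arrays, replicate 1 was the highest in G6pc and Slc2a2 and second to replicate 4 in Slc37a4. It was the rescued array with the lowest Hdac3 value and the highest median intensity.

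G6pc3 encodes the glucose-6-phosphatase catalytic subunit that is found in most tissues. It read 8.64, 8.77 and 8.63 in knockout livers against 8.62, 8.52, 8.35 and 8.86 in rescued livers. The groups overlapped, with the rescued livers the more spread. The difference was 0.09 (95% confidence interval -0.14 to 0.33, limma adjusted p = 0.545), an interval that holds no fall as large as those of the other 3 genes of glucose release.

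Among the 10 genes, 4 encode enzymes between pyruvate and fructose-6-phosphate. None of these 4 was called lower and 1 was called higher, beside 4.85% and 9.54% of all genes. Pck1 encodes the cytosolic phosphoenolpyruvate carboxykinase, the classical hormone-regulated enzyme of the pathway. It read 12.83, 12.72 and 12.76 in knockout livers against 12.56, 12.73, 12.76 and 12.61 in rescued livers. The groups overlapped, and the difference of 0.11 (SE 0.07, 95% confidence interval -0.06 to 0.27) did not pass the test (limma adjusted p = 0.310). After the scalings it was 0.02 to 0.03.

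Pck2, the mitochondrial form of the same enzyme, lay lower on the array scale, with 7.45, 7.48 and 7.46 in knockout livers against 7.38, 7.45, 7.37 and 7.35 in rescued livers. Knockout replicate 1 and rescued replicate 2 met at the same value. Its difference was 0.07 (95% confidence interval -0.06 to 0.21, limma adjusted p = 0.400), and -0.0155 after median centring, which turns its sign.

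Fbp1 encodes liver fructose bisphosphatase. It read 13.02, 13.08 and 13.08 in knockout livers against 13.17, 13.20, 13.18 and 13.14 in rescued livers. Here every knockout liver lay below every rescued liver, but the gap was small. The difference was -0.11 (SE 0.06, 95% confidence interval -0.25 to 0.03, limma adjusted p = 0.216). The scalings gave differences of -0.20 to -0.18, with adjusted p from 0.0681 to 0.0760, so Fbp1 was not called in any of them. Their unadjusted 95% confidence intervals held only negative values. These were -0.30 to -0.05 after quantile normalization, -0.35 to -0.06 after median centring and -0.33 to -0.06 after cyclic loess.

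Pcx encodes pyruvate carboxylase, the mitochondrial entry enzyme. It read 11.46, 11.64 and 11.65 in knockout livers against 11.38, 11.32, 11.34 and 11.35 in rescued livers. All knockout livers lay above all rescued livers, as for 21.0% of all genes. The difference was 0.24 (SE 0.07, 95% confidence interval 0.08 to 0.39), or 1.18-fold higher, and it passed narrowly with limma adjusted p = 0.0471. The call was lost in every scaling, where the difference was 0.15 to 0.20 and adjusted p 0.115 to 0.227. It was kept without knockout replicate 1 (difference 0.30, adjusted p = 0.0404) and lost without any other array, with differences of 0.20 to 0.25.

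Both transcription regulators in the set overlapped between groups. Ppargc1a encodes PGC-1alpha, the coactivator that raises gluconeogenic transcription in fasting. Its brighter probe set read 8.11, 8.36 and 8.24 in knockout livers against 8.05, 8.09, 8.34 and 7.98 in rescued livers, a difference of 0.12 (95% confidence interval -0.09 to 0.33, limma adjusted p = 0.363). Its other probe set gave 0.18 (95% confidence interval -0.09 to 0.46), also without a call. Foxo1, the insulin-restrained forkhead factor, read 9.59, 9.49 and 9.49 in knockout livers against 9.35, 9.61, 9.72 and 9.49 in rescued livers. Its difference was -0.02 (95% confidence interval -0.21 to 0.18, limma adjusted p = 0.886), and its sign changed when rescued replicate 2 or 3 was left out. These values are transcript levels and do not report the location or the modification of either protein.

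**Figure D2:**
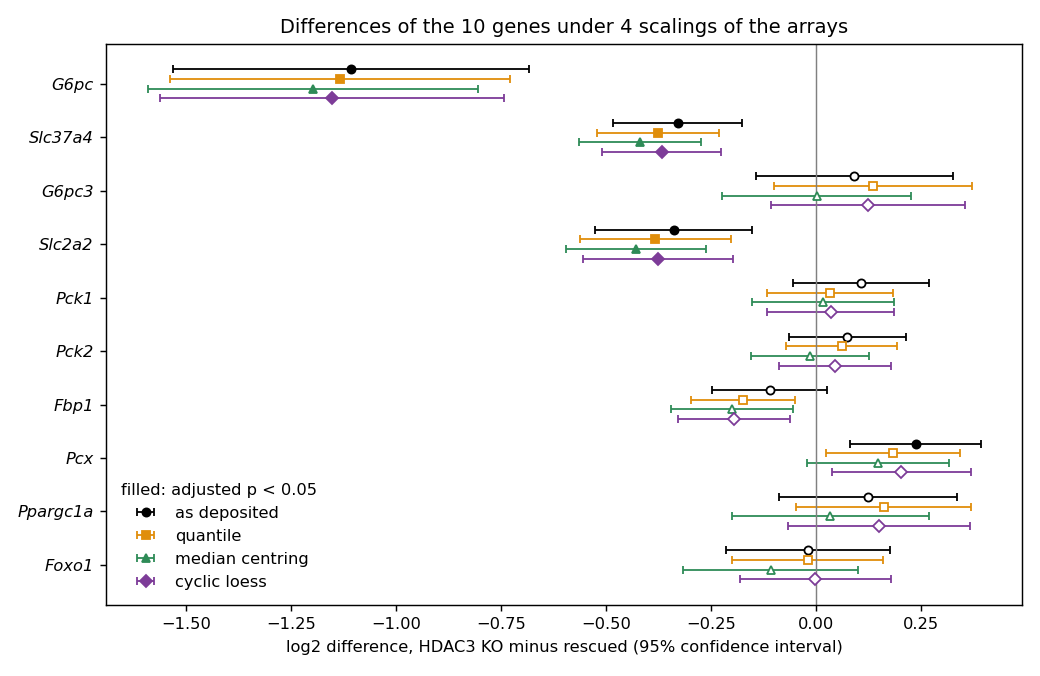
Log2 difference between HDAC3 knockout and rescued livers for the 10 genes, with 95% confidence intervals from limma, as deposited and after 3 scalings of the arrays. Filled markers have an adjusted p under 0.05 over all genes. G6pc, Slc37a4 and Slc2a2 are filled in all 4 settings, and Pcx as deposited only.

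The change of G6pc was also set against that of each of the other 9 genes within the same array, a ratio in which any intensity offset common to both genes cancels. Relative to Pck1, knockout livers averaged -1.61 ± 0.52 (SD, n = 3) on the log2 scale and rescued livers -0.40 ± 0.21 (SD, n = 4). G6pc thus fell by 1.21 log2 units relative to Pck1. It fell by 1.20 relative to G6pc3, by 0.78 relative to Slc37a4 and by 0.77 relative to Slc2a2. In all 9 ratios every knockout array lay below every rescued array. The exact permutation test gave a two-sided p of 0.0571 for each of the 9, also after Benjamini-Hochberg adjustment, which is the smallest p that 3 arrays against 4 allow, so no ratio could pass 0.05. The ratios were chosen with the values known. All 9 hold the same G6pc values, in which the groups already did not overlap, so they are not 9 separate results.

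**Figure D3:**
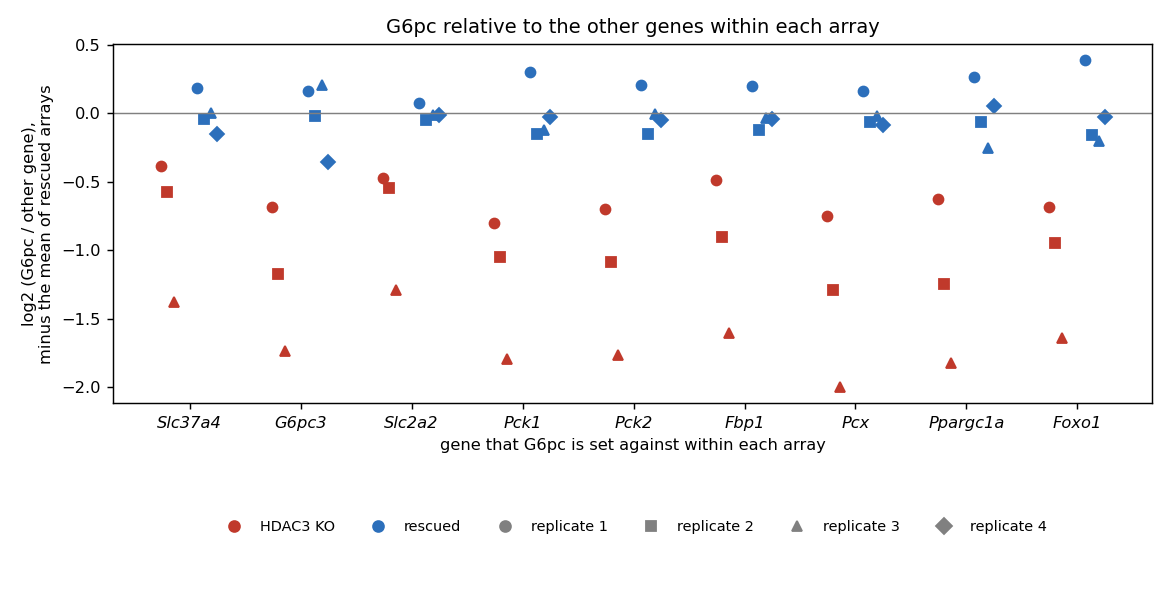
Log2 ratio of G6pc to each of the other 9 genes within each array, minus the mean ratio of the rescued arrays. HDAC3 knockout arrays are red and stand to the left, rescued arrays are blue, and marker shapes give the replicate number. In every ratio the 3 knockout arrays lie below the 4 rescued arrays, with knockout replicate 3 lowest. All ratios share the same G6pc values.

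The promoters of the 3 lower genes are shown with that of Pck1, whose difference did not pass the test, so that their start regions can be set side by side. Each line gives the 250 bases before a RefSeq start in GRCm38.p6, all on the plus strand, 5′ to 3′. They are chr11:101367466-101367715 for G6pc, chr9:44396696-44396945 for the most upstream of 3 starts of Slc37a4, chr3:28697653-28697902 for Slc2a2 and chr2:173152823-173153072 for Pck1. Capitals mark matches, on either strand, to the letters of 6 motifs. AGGTCA is the half-site bound by many nuclear receptors. Forkhead cores were searched as TGTTTAC and as TGTTTGC. The half-site of cyclic AMP response elements was searched as TGACG, the E-box as CACGTG and the TATA box as TATAAA.
G6pc: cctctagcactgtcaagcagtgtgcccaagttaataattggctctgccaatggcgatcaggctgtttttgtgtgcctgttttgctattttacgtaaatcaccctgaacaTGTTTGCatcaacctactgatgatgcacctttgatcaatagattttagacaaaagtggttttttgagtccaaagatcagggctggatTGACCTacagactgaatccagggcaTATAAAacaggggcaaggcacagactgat
Slc37a4: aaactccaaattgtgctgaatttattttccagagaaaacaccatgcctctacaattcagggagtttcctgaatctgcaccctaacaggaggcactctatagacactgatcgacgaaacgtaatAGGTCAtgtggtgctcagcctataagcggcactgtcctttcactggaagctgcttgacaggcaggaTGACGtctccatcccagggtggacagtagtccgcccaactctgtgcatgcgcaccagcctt
Slc2a2: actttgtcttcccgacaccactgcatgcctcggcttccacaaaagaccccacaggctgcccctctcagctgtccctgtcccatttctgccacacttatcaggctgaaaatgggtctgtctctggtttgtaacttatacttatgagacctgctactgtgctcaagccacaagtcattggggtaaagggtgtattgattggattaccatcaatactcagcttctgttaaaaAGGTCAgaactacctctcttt
Pck1: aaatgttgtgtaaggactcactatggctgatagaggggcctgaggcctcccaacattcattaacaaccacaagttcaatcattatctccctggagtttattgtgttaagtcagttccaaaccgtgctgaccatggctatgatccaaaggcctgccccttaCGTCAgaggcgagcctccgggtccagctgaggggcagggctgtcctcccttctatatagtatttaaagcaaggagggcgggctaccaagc

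All 10 genes had at least 1 such window. AGGTCA was found in windows of 3 of the 10 genes, G6pc, Slc37a4 and Slc2a2, which are the 3 called lower. It lies at -54 to -49 from the start in G6pc, where it reads TGACCT, at -127 to -122 in Slc37a4 and at -21 to -16 in Slc2a2. Neither of the other 2 start windows of Slc37a4 holds it. So short a motif is common: 14.0% of the 32851 windows in the RefSeq table and 15.8% of the 27025 genes with a window hold it. TGACG was found in Slc37a4, Pck1 and Ppargc1a (17.8% of all windows, 19.8% of genes), and in Pck1 it reads CGTCA at -90 to -86. TGTTTGC was found in G6pc alone (4.30% of windows, 4.93% of genes) and TGTTTAC in none of the 10 (3.17% and 3.54%). CACGTG was found in G6pc3 and Pcx (6.02% and 6.86%), and TATAAA in G6pc and in the third window of Slc37a4 (12.4% and 14.3%). The motifs were found by their letters, overlap of motifs was allowed, and no binding was measured.

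The genes with the array pattern most like each called member were sought by the root mean square distance of their 7 centred log2 values. Nearest to G6pc was Zfp991 (distance 0.24), a zinc finger gene, followed by Rgs16, a regulator of G protein signalling, and Zfp750. Rgs16 read 10.45, 9.79 and 9.85 in knockout livers against 11.25, 10.92, 10.73 and 10.94 in rescued livers. The difference was -0.93. Rgs16 was picked for its likeness to G6pc over these arrays, so its order of arrays and its difference are no separate result. Nearest to Slc37a4 were Hs3st3b1, Wtap and Yipf3, with distances of 0.038 to 0.041. Nearest to Slc2a2 was Slc25a11 (0.040), the mitochondrial oxoglutarate carrier, followed by Rpl9 and Rab28. Nearest to Pcx was Suclg2 (0.013), a subunit of succinyl-CoA ligase, followed by Elavl4 and Nlrp14, which lay at the low end of the array scale. Small differences are matched more closely than large ones by this measure, so distances are not comparable between members.

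Of 17 measured genes that bring substrate into the pathway or shuttle it between compartments, 4 were called higher and 1 lower, beside 9.54% and 4.85% of all genes. Their median difference was 0.14, beside 0.09 over all genes. The count called higher was 2 to 7 over the alternatives. Slc25a10, the mitochondrial dicarboxylate carrier, read 11.96, 12.01 and 11.68 in knockout livers against 11.14, 11.09, 11.08 and 11.05 in rescued livers. The groups lay far apart and the rescued livers close together. It was 1.73-fold higher (difference 0.79, SE 0.08, limma adjusted p = 0.000529). Gpd1, the cytosolic glycerol phosphate dehydrogenase through which glycerol carbon enters, was 0.55 higher (SE 0.08, adjusted p = 0.00212). Mpc1, a subunit of the mitochondrial pyruvate carrier, was 0.31 higher (SE 0.07, adjusted p = 0.0220), but not after median centring (0.22, 0.0633). Slc25a11 was the lower one, at -0.30 (SE 0.09, adjusted p = 0.0439). Slc25a10 and Gpd1 higher and Slc25a11 lower were the calls shared by all scalings. With 1 array left out, Slc25a10 and Gpd1 kept their calls in all 7 fits, Mpc1 in 3 and Slc25a11 in 1.

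The enzymes that push carbon the opposite way through glycolysis included 4 called lower and none higher of 12 measured, beside 4.85% of all genes called lower and 9.54% higher. Their median difference was -0.08. At an unadjusted p under 0.05 limma gave the same 4 lower and 1 higher, beside 7115 of all 19933 genes in either direction. The 1 higher was the pyruvate kinase gene Pkm, at 0.25 and chosen after its value was seen. The other pyruvate kinase gene of the list, Pklr, was brighter (mean 11.46 against 8.79 for Pkm). Pklr differed by -0.26 and was not called (limma adjusted p = 0.254). Pfkfb3, whose enzyme makes an activator of phosphofructokinase, read 8.15, 7.90 and 8.47 in knockout livers against 8.77, 9.17, 9.09 and 8.84 in rescued livers. All knockout livers lay below all rescued livers. The difference was -0.79 (SE 0.13, limma adjusted p = 0.00640), or 1.73-fold lower. Its paralog Pfkfb2 differed by -0.51 (SE 0.12, adjusted p = 0.0205). The phosphofructokinase subunit genes Pfkl and Pfkm differed by -0.33 each (adjusted p = 0.0345 and 0.0170). Pfkl was not called after quantile normalization (-0.31, adjusted p = 0.0610), and the other 3 were called lower in every scaling. Without rescued replicate 3, of the 4 only Pfkfb3 kept its call. Of 5 measured reversible enzymes shared by both directions, 1 was called, Pgk1 (phosphoglycerate kinase), with a difference of 0.25 (SE 0.07, adjusted p = 0.0361). After median centring Pgk1 was at 0.16 and not called (adjusted p = 0.121), and it was called in 2 of the 7 fits without 1 array, as was Pfkl.

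**Figure D4:**
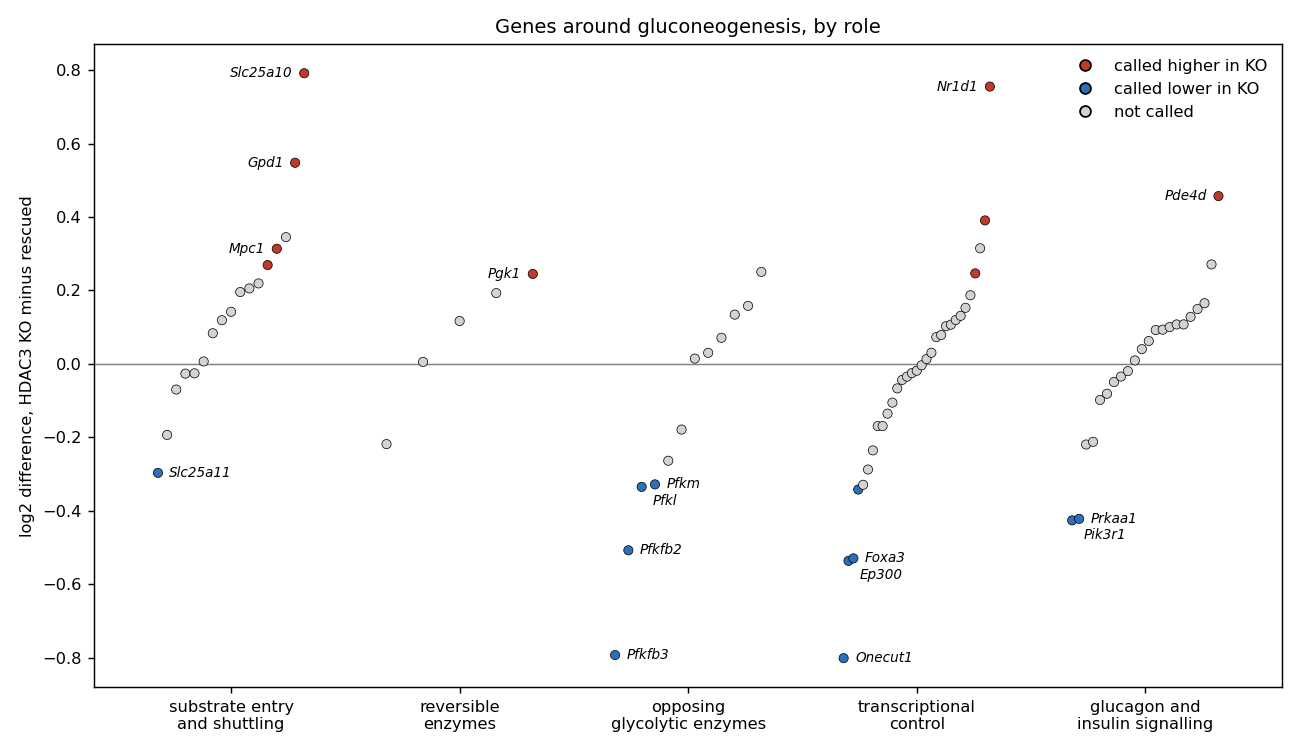
Log2 difference between HDAC3 knockout and rescued livers for every measured gene of 5 groups around gluconeogenesis, sorted within each group. Red points were called higher in knockout, blue points lower and grey points neither, and italic labels name the genes given in the text. Slc25a10 and Nr1d1 are the highest points, and Pfkfb3 and Onecut1 the lowest.

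Among 31 measured transcriptional regulators of gluconeogenic genes, 4 were called lower and 3 higher, beside 4.85% and 9.54% of all genes, and the median was -0.02. Without knockout replicate 1 only 1 was called lower. Onecut1 (HNF6), a hepatocyte factor, read 9.29, 9.90 and 10.04 in knockout livers against 10.59, 10.44, 10.93 and 10.21 in rescued livers, a difference of -0.80 (SE 0.19, limma adjusted p = 0.0221). The groups did not overlap, but both were widely spread, and leaving out knockout replicate 1 (-0.57, adjusted p = 0.0849) or rescued replicate 3 (-0.67, 0.0591) ended the call. Ep300, the acetyltransferase p300, differed by -0.54 (SE 0.10, adjusted p = 0.0113) and Foxa3, a forkhead factor of hepatocytes, by -0.53 (SE 0.09, adjusted p = 0.00733). Ep300 was not called without knockout replicate 1. Nr1d1, which encodes the haem-binding repressor REV-ERBalpha that recruits HDAC3, read 11.51, 10.87 and 10.69 in knockout livers against 10.37, 10.32, 10.38 and 10.001 in rescued livers. Its difference was 0.76 (SE 0.17, adjusted p = 0.0187), called without each array in turn. These 4 kept their direction and their calls in all scalings. The count of 7 called in both directions was 5 after quantile normalization or cyclic loess and 8 after median centring.

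Of 22 measured genes of glucagon and insulin signalling, 2 were called lower and 1 higher, beside 4.85% and 9.54% of all genes. The median difference was 0.05, beside 0.09 over all genes. Pik3r1, a regulatory subunit of phosphoinositide 3-kinase, differed by -0.43 (SE 0.09, limma adjusted p = 0.0142). It was not called without knockout replicate 1. Prkaa1, a catalytic subunit of AMP-activated kinase, differed by -0.42 (SE 0.10, adjusted p = 0.0215) and kept its call in 3 of the 7 fits that leave out 1 array. Pde4d, a phosphodiesterase that breaks down cyclic AMP, was higher by 0.46 (SE 0.09, adjusted p = 0.0103), measured by the brightest of 3 probe sets. All 3 were called in every scaling.

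Markers of other liver cells were read on the same arrays. Beside the counts below, 4.85% of all genes were called lower and 9.54% higher. At an unadjusted p under 0.05 limma gave 7115 of all 19933 genes, in either direction. Of 7 liver endothelial markers 2 were called lower, Clec4g (-0.29) and Fcgr2b (-0.21), neither in every scaling. The list's summed intensity was 4563 to 5420 in knockout and 5467 to 5597 in rescued livers. Of 7 stellate markers 1 was called higher, Lrat (0.32), but not in every scaling, and 4 had an unadjusted p under 0.05, with sums of 4323 to 4737 in knockout and 4268 to 4711 in rescued livers. None of 9 Kupffer cell and macrophage markers was called, with sums of 4044 to 4347 in knockout and 3151 to 4659 in rescued livers, and limma gave 1 at an unadjusted p under 0.05. None of 5 cholangiocyte markers (533 to 603 in knockout and 463 to 511 in rescued livers; 2 at an unadjusted p under 0.05) or 5 lymphocyte markers (325 to 351 and 293 to 326; 1) was called. Of 7 periportal hepatocyte markers, the zone where gluconeogenesis is strongest, Hal was called higher (0.34), but not in every scaling, and Etnppl lower (-0.49) in all of them, with sums of 26152 to 27079 in knockout and 23247 to 25008 in rescued livers.  The part of other cells or of zonation in the differences of the 10 genes was not tested.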

How the data were processed

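Per the labels' protocols, Trizol was used to extract total RNA from frozen livers for the arrays. The deposited intensity values are linear, as found from the values, and RMA and Partek are named, without versions or roles, per the submitters' processing notes. The scaling applied last is unknown, the values hold no detection calls. The build behind the probe annotation was not given in the sources used here. The labels call the arrays biological replicates, and at most 3.79% of the deposited values were exactly equal between any pair. Gene names are those of the platform annotation, in which, of 27541 rows, 21631 had 1 symbol, 1317 several and 4593 none. Log2 was taken, the brightest probe set with 1 symbol stood for its gene, and no dim gene was removed.

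The test was limma's (version 3.58.1, R 4.3.3; lmFit, eBayes, two-sided), with no covariates and p-values adjusted after Benjamini-Hochberg over 19933 genes. Single ratios were tested with the exact permutation test of scipy 1.17.1. The 14 alternatives were 3 scalings, a filter on dim genes, the mean of probe sets, a trended robust spread, the replicate number as a block and 7 fits without 1 array. Members, gene lists and motifs were chosen with earlier results of these data known. Genes named beside the members are Hdac3, up to 4 called genes of each pathway list with the largest differences and the 3 nearest patterns of each called member. The markers called in the cell type lists, Pkm and Pklr are named as well. Simulated data with known changes were used to test the scripts. For arrays, their number limits the precision. Promoters come from RefSeq tables of GRCm38.p6, and figures were drawn with matplotlib 3.10.9.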

Additional observations from a re-analysis of the deposited data

How the results depend on the processing

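G6pc and Slc37a4 stayed called lower in all 14 alternatives, with limma adjusted p from 0.00268 to 0.0294 for G6pc and from 0.00355 to 0.0459 for Slc37a4, and Slc2a2 in 10 of 14 (0.00599 to 0.0769). The count of members called lower was 3 in every alternative except 4 of the fits without 1 array, where it was 2 because Slc2a2 was not called. The count called higher, 1 as deposited, was 0 after quantile normalization, median centring and cyclic loess. At an unadjusted p under 0.05 limma gave 1, 0 and 1 higher members there. It gave 4 lower members in each of these scalings, beside 3 as deposited. Over all genes, 7115 of 19933 had an unadjusted p under 0.05 as deposited, in either direction. That count over all genes was not made for the scalings. Without 1 array the count called higher ranged from 0 to 1. Pck2 differed by -0.0155 after median centring, and Foxo1 ranged from -0.0822 to 0.0392 with 1 array left out; the cause was not tested. Over all genes 2867 were called, from 897 to 3263 with 1 array left out: 897 without knockout replicate 1, 1721 without knockout replicate 2, and 1200, 948 and 1331 without rescued replicates 2, 3 and 4. The share of higher calls was 66.3% as deposited, 45.9% with quantile normalization, 27.2% with median centring and 44.98% with cyclic loess. The replicate numbers were not taken as pairs. Deviations of same-numbered arrays correlated at 0.15, 0.0028 and 0.0053, and only knockout replicate 1 correlated best with its own number. So few arrays cannot show whether same-numbered arrays were handled together. With the replicate number as a block 1938 genes were called, 3 members lower and 0 higher, with 1 higher at an unadjusted p under 0.05.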
